A study of Mus musculus with 27 samples.

Results

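Solute carriers are membrane proteins that move small molecules across the plasma membrane and the membranes of organelles, and their mouse symbols are made of Slc, a family number, the letter a and a member number. All rows of the deposited table whose symbol has that form were taken, which gave 152 of 9996 genes. Of these, 148 are carriers of 44 numbered families. The other 4 carry the name without being carriers: Slc9a3r1 is a scaffold protein, Slc7a6os is named for its place opposite a carrier gene, Slc4a1ap is an adaptor protein and Slc2a4rg-ps is a pseudogene. Of 42 carriers listed for known roles in myeloid cells or in the handling of cisplatin, 37 are among the 152.

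RNA was measured in 27 libraries of neutrophils (15) and macrophages (12) sorted from mammary tumours of K14cre;Cdh1F/F;Trp53F/F mice, in which a Cre recombinase under the keratin 14 promoter of epithelial cells deletes E-cadherin and p53. All 8 groups share that genotype, and the labels give no age. Mice had control antibody (4 neutrophil and 4 macrophage libraries), anti-CSF-1R, an antibody that blocks the receptor macrophages depend on (4 and 2), cisplatin with control antibody, called cisplatin here (3 and 4), or both cisplatin and anti-CSF-1R, the combination below (4 and 2). Mice given cisplatin were killed 1 day after injection 2, and the others when the tumour reached 100 mm2, so the effect of cisplatin and that of the endpoint cannot be told apart. The labels do not say which surface markers set the sort, nor whether each library is a different mouse. The p-values therefore measure spread among these libraries, part of which may be technical.

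Libraries held 997730 to 3281864 decoded reads in neutrophils and 1292782 to 7488375 in macrophages. The values are read counts divided by a size factor, called normalised read counts below, and many had lost their decimal point. The point was restored from the value of 1 read in each library, and of 4104 member values 7.87% had no place with a probability of at least 0.95 and were left out. The number of libraries beside a mean therefore counts those that kept a value. A member passed a test when its adjusted p was under 0.05, with limma on log2(value + 1) and the Benjamini-Hochberg adjustment over all genes tested. Fold changes below are on that scale and understate changes of low genes. Of 15 macrophage markers 14 were higher in control macrophages, and all 13 measured neutrophil markers were higher in control neutrophils. Markers of other cells also differed, mostly toward neutrophils: 4 of 7 monocyte markers (Ly6c2 by a log2 difference of -4.35), 2 of 5 eosinophil (Siglecf, -5.80), 3 of 4 dendritic cell (Clec9a, -4.14), 2 of 2 epithelial (Epcam, -2.94), 2 of 7 mast cell and basophil, 1 of 5 fibroblast and 1 of 2 T and NK cell markers were higher in control neutrophils. Higher in control macrophages were 2 monocyte markers, 1 mast cell and basophil marker and 1 T and NK cell marker. The part of such cells in the carriers' differences was not tested. Summed neutrophil markers stood at 293 to 1673 in control macrophages against 27656 to 51048 in control neutrophils. Summed macrophage markers stood at 8648 to 12941 in control neutrophils against 32670 to 43784 in control macrophages. In such bulk samples, fewer cells of a type and less RNA per cell cannot be told apart.

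Carriers work either by letting a solute run down its gradient, as the glucose carriers of family 2 do, or by coupling it to the gradient of an ion or of a second solute, as in cystine uptake in exchange for glutamate. Neutrophils are known for living mainly on glycolysis, with glucose taken in and lactate passed out. Macrophages are known for taking up arginine and other amino acids, for recycling iron and for emptying the nucleosides and amino acids of digested cells out of their lysosomes.

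The 250 bases before the start of 5 members that differed between the cell types are given first. Slc22a15 and Slc28a2 were higher in neutrophils, and Slc9a9 and Slc25a1 were higher in macrophages. Slc2a6, higher in neutrophils, passed in both cell-type comparisons and in 3 comparisons of treatment. None of these 3 held with every value at its most probable place. The sequences are from RefSeq on GRCm38.p6, on the strand of the gene. Of the 152 members, 90 matched exactly 1 promoter entry. Capitals mark matches on either strand of GGAAGT (the core of sites of ETS factors such as PU.1) and ACGTG (the core of hypoxia response elements).
Slc22a15 (chr3:101924454-101924703, minus strand): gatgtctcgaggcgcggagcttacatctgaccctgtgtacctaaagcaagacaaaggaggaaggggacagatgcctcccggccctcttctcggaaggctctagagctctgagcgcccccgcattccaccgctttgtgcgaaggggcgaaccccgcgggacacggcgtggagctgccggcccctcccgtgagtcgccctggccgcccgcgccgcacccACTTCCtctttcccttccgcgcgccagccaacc
Slc28a2 (chr2:122426185-122426434, plus strand): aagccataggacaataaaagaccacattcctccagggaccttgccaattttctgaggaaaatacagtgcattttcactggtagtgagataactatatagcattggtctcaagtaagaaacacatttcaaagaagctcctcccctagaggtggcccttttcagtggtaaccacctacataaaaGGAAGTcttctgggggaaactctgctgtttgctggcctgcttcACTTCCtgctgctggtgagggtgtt
Slc9a9 (chr9:94669642-94669891, plus strand): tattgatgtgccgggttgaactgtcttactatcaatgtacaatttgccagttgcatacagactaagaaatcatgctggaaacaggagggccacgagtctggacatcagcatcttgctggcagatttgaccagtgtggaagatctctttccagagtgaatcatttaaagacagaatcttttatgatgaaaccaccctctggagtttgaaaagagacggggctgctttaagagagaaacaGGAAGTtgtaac
Slc25a1 (chr16:17928220-17928469, minus strand): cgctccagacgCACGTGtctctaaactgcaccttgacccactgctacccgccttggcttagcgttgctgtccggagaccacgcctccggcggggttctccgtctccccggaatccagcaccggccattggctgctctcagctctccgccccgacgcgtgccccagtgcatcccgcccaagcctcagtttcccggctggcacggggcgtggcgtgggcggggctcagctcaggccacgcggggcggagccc
Slc2a6 (chr2:27027999-27028248, minus strand): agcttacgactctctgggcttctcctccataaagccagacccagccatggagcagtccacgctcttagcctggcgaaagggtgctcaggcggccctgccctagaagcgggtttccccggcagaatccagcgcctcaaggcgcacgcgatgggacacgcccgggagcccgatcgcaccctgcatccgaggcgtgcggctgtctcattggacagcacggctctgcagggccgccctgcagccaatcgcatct
Slc22a15 and Slc9a9 each hold 1 ETS core and Slc28a2 holds 2. The CACGTG of Slc25a1 reads ACGTG on each strand. The window of Slc2a6 holds no match to these letters or to TTGCNNAA, a site of C/EBP factors. Over 22855 promoters of the same length the ETS core was in 20.2%, the hypoxia core in 16.3% and the C/EBP letters in 9.60%. Over the 90 members the shares were 23.3%, 27.8% and 7.78%. The genes and the letters were chosen after the values were seen, and a match is a description and not a site.

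The glucose carriers Slc2a1 and Slc2a3, the lactate exporter Slc16a3 and the cystine carrier Slc7a11 were higher in neutrophils. The amino acid carriers Slc7a8 and Slc38a6, the zinc exporter Slc30a1 and the lysosomal nucleoside carrier Slc29a3 were higher in macrophages. In mice given control antibody, 86 of 151 tested members differed between macrophages and neutrophils, 47 higher and 39 lower in macrophages, against 51.2% of 9902 genes (26.4% higher, 24.8% lower). In mice given cisplatin, 85 of 151 differed, 48 higher and 37 lower in macrophages, against 56.4% of 9896 genes (28.8% higher, 27.6% lower). The shares of members were 57.0% and 56.3%, so carriers as a set differed about as often as other genes did. The median log2 difference of members was 0.23 in control and 0.20 in cisplatin, beside 0.12 over all genes tested in each. Slc4a4, a bicarbonate carrier, was too low in every library to test.

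**Figure D1:**
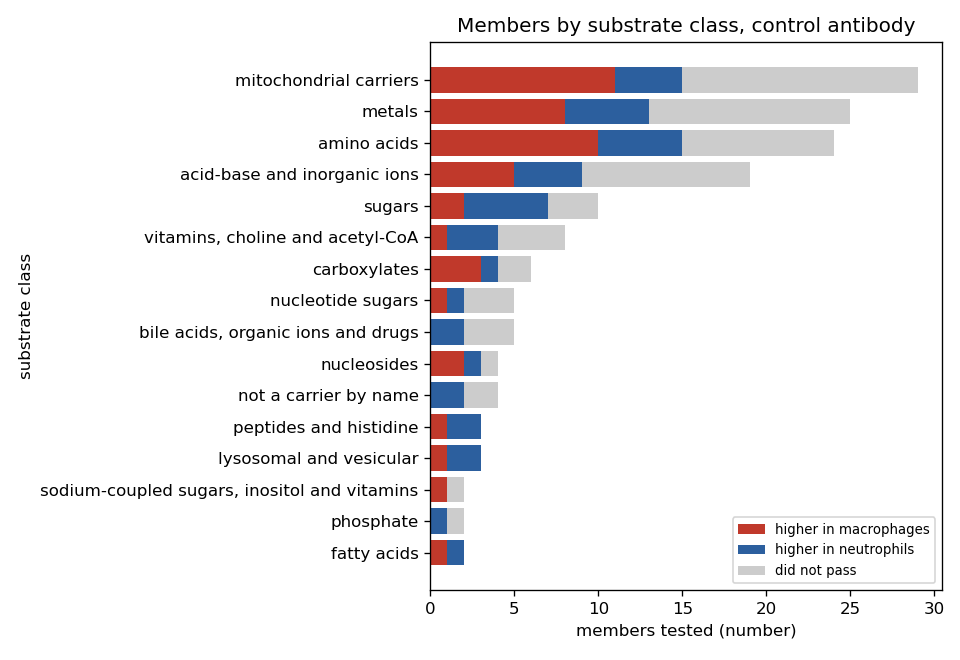
Members tested in each substrate class (bars, number of genes) in mice given control antibody, split into those higher in macrophages, those higher in neutrophils and those that did not pass an adjusted p of 0.05. Of 10 sugar carriers 5 were higher in neutrophils, while Slc2a8 and Slc50a1 were higher in macrophages. Of 24 amino acid carriers 10 were higher in macrophages and 5 in neutrophils. Over all genes 26.4% were higher in macrophages and 24.8% in neutrophils.

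The control and the cisplatin comparison use different libraries, but they are not fully separate. Decimal places were restored with the help of the other groups of the same cell type, and 1 fit gave both comparisons a shared spread. In both, 74 members passed, which is 86.0% of the control calls and 87.1% of the cisplatin calls. All 74 had the same direction, 39 higher in macrophages and 35 higher in neutrophils. Of all genes, 4184 passed in both with the same direction, which is 82.5% and 75.0% of the calls. In 113 members at least 2 libraries of each group kept a value. In 43 of them the macrophage and neutrophil libraries that kept a value did not overlap in any of the 4 treatments, always in 1 direction. These were 21 higher in macrophages and 22 in neutrophils, against 29.9% of 7221 genes. Values left out, such as those of Slc1a2, are not in this count. The 20 members named for each comparison passed under all 16 alternatives run for control and all 15 run for cisplatin. They were chosen for the smallest p in these same data, which favours this outcome.

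**Figure D2:**
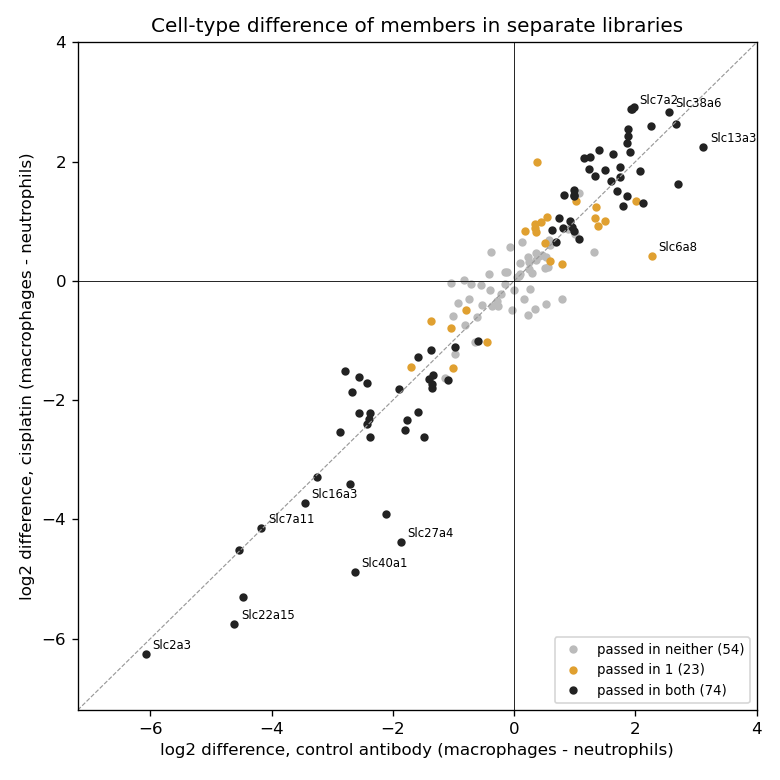
Each point is 1 of the 151 tested members, with its log2 difference (macrophages minus neutrophils) in control libraries on the x axis and in cisplatin libraries on the y axis, and the broken line marks equal values. The 74 members that passed in both lie where both differences have the same sign, while Slc6a8 is at 2.27 in control and 0.42 in cisplatin.

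Among sugar carriers, the facilitative glucose transporters Slc2a1, Slc2a3 and Slc2a6 were all higher in neutrophils. Slc2a3 (GLUT3, a glucose carrier of high affinity, chromosome 6, 122727809 to 122801640 on GRCm38) stood at 5.04, 6.49 and 26.9 in the 3 control macrophage libraries that kept a value. In control neutrophils it stood at 1162, 664 and 503. The lowest neutrophil library was far above the highest macrophage library, and the log2 difference was -6.08 ± 0.51 (SE, adjusted p = 5.12e-09). In cisplatin the difference was -6.25, and macrophage libraries reached 20.4 at most against at least 557 in neutrophils. Slc2a1 (GLUT1, the common basal glucose carrier) stood at 187 to 397 in control macrophages and at 1099 to 1959 in control neutrophils, without overlap (-2.38 ± 0.32, adjusted p = 1.9e-06). Slc2a6 (GLUT6, a carrier found mainly on lysosomes) was in control macrophages at 15.5 ± 5.31 (SD, n = 2) and, in control neutrophils, at 111 ± 20 (SD, n = 4) (-2.79 ± 0.33, adjusted p = 4.79e-07). Slc37a1 and Slc37a3 of the sugar-phosphate family were also higher in control neutrophils, Slc37a3 without passing in cisplatin (adjusted p = 0.116). Slc2a8 (GLUT8, an intracellular glucose carrier) and Slc50a1 went the other way, at 9.40 ± 3.97 and 20.2 ± 5.17 in control macrophages against 2.52 ± 1.64 and 7.17 ± 4.10 in control neutrophils (SD, n = 4 each). Slc2a9, the urate carrier, did not pass in control (0.37 ± 0.43, adjusted p = 0.485) and passed in cisplatin, with macrophages higher by 2.0 on the log2 scale.

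**Figure D3:**
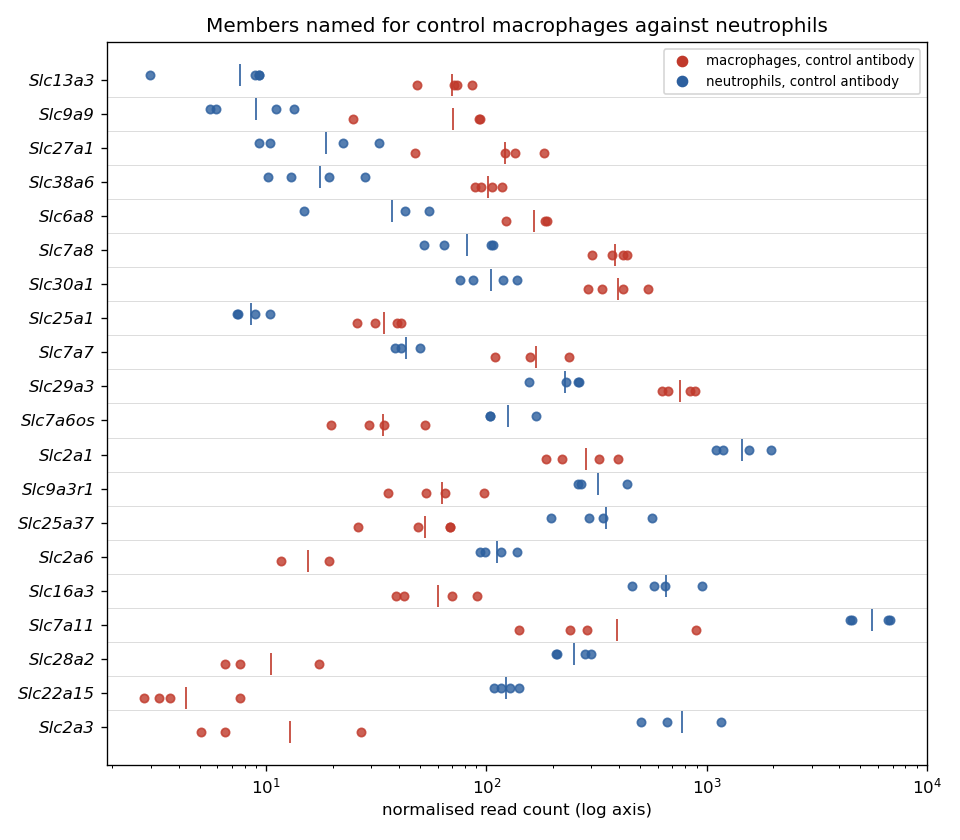
Normalised read count (x axis, log scale) of the 20 members named for the control comparison, 1 point per library that kept a value and a vertical tick at the mean, for control macrophages and control neutrophils. In all 20 members the kept points of the cell types do not overlap. Slc2a3 has the widest gap, with 26.9 as the highest kept macrophage and 503 as the lowest kept neutrophil value. Left-out values are not shown, such as that of Slc6a8 in control macrophage replicate 4, most probably 47.99. The members were chosen for the smallest p in each direction, which favours such gaps.

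Monocarboxylate carriers split. Slc16a3 (MCT4, which passes lactate out of glycolytic cells) stood at 38.9, 42.2, 90.2 and 69.8 in control macrophages and at 575, 951, 646 and 456 in control neutrophils, a log2 difference of -3.46 ± 0.37 (adjusted p = 4.78e-08). Slc16a1 (MCT1, which carries lactate either way) was higher in control macrophages, at 79.0 ± 30.4 against 31.4 ± 15.9 (SD, n = 4 each; 1.35 ± 0.34, adjusted p = 0.00251), but not past the threshold in cisplatin, where 1 of 3 neutrophil libraries kept a value (adjusted p = 0.0540). Slc16a7 (MCT2) followed the same pattern, with log2 differences of 2.01 ± 0.48 in control (adjusted p = 0.0012) and 1.34 ± 0.59 in cisplatin (adjusted p = 0.0537). Slc13a3, the sodium-coupled dicarboxylate carrier that takes up succinate, stood at 48.5 to 86.0 in control macrophages and at 2.96 to 9.26 in control neutrophils (3.12 ± 0.39, adjusted p = 8.57e-07). Of 21 other genes of glucose use and lactate, 11 were lower and 0 higher in control macrophages than in control neutrophils, with 24.8% and 26.4% of all genes called in these directions. They include the hexokinase gene Hk3 (-1.94 ± 0.44, adjusted p = 0.000808), Pfkfb3, which raises glycolytic flux (-1.35 ± 0.47, adjusted p = 0.0192), and Txnip, which lowers glucose carriers at the cell surface (-3.65 ± 0.21, adjusted p = 1.58e-12). The lactate dehydrogenase gene Ldha did not pass (-0.57 ± 0.28, adjusted p = 0.0978).

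Of 24 amino acid carriers, 10 were higher and 5 lower in control macrophages, beside 26.4% of all genes higher and 24.8% lower. The macrophage side held Slc7a7 and Slc7a8 (light chains that exchange cationic and large neutral amino acids), Slc38a6, Slc38a7, Slc38a9 and Slc38a10 of the glutamine carrier family (Slc38a9 is the lysosomal arginine sensor of mTORC1), Slc36a4, Slc43a2, the arginine carrier Slc7a2 and the creatine carrier Slc6a8. Slc38a6 stood at 88.7 to 118 in control macrophages and 10.2 to 28.1 in control neutrophils (2.55 ± 0.32, adjusted p = 6.52e-07). Slc7a8 stood at 303 to 437 and at 51.8 to 107 (2.26 ± 0.37, adjusted p = 2.34e-05). Slc6a8 passed in control at 165 ± 37.3 in macrophages against 37.3 ± 20.4 in neutrophils (SD, n = 3 each). Its left-out macrophage value, of replicate 4, is 47.99 (92.5%) or 479.9 (7.49%), and 47.99 lies within 1 SD of the neutrophil mean. Its left-out neutrophil value, of replicate 1, is most probably 8.886 (87%). In cisplatin, where 1 neutrophil library kept a value, Slc6a8 did not pass (0.42 ± 0.61, adjusted p = 0.577). The change of the cell-type difference was itself not past the threshold (-1.86 ± 0.74, adjusted p = 0.525). Slc7a2 kept a value in only 2 of 4 control macrophage libraries (76.2 and 264). Slc38a9 did not pass in cisplatin (adjusted p = 0.0968). The neutrophil side held Slc7a11, Slc1a2, Slc38a2, Slc36a3 and Slc6a12.

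Slc7a11 (xCT, which takes up cystine in exchange for glutamate and so feeds glutathione synthesis) was far higher in neutrophils. In control neutrophils it stood at 6685, 6792, 4487 and 4593. In control macrophages it stood at 141, 241, 898 and 286, without overlap (-4.17 ± 0.43, adjusted p = 3.74e-08). Its partner chain Slc3a2 (CD98hc, the heavy chain that carries xCT and the other light chains to the surface) did not pass, with macrophages at 693 ± 206 and neutrophils at 829 ± 144 (SD, n = 4 each; -0.29 ± 0.27, adjusted p = 0.383). Of 15 tested genes of cystine, glutathione and NRF2 targets, 7 were lower and 1 higher in control macrophages, beside 24.8% of all genes lower and 26.4% higher. The other amino acid lists did not lean this way: 5 were higher and 5 lower of 15 ATF4 targets, 4 and 4 of 12 genes of arginine and polyamines, and 5 and 2 of 15 genes of glutamine and mTORC1 at the lysosome. Among the 7 of the cystine list were Gclm, the modifier subunit of glutamate-cysteine ligase (-1.26 ± 0.42, adjusted p = 0.0133), and the thioredoxin reductase Txnrd1 (-1.44 ± 0.35, adjusted p = 0.00164), while the catalytic subunit Gclc did not pass (-0.01 ± 0.28, adjusted p = 0.977). Slc1a2 (GLT-1, a glutamate carrier best known from astrocytes) was at 270 and 195 in the 2 control neutrophil libraries that kept a value. Macrophages had 10.5 ± 6.30 (SD, n = 4) (-4.47 ± 0.64, adjusted p = 1.02e-05). The left-out neutrophil value of replicate 3 is 57.4 (90.9%) or 574 (9.09%). That of replicate 4 is 9.26 (50.2%), 92.6 (48.2%) or 926 (1.6%), and 9.26 lies within the macrophage values. The size of this difference therefore rests on which places were kept. Slc38a2 (SNAT2, a neutral amino acid carrier) was higher in neutrophils at 3348 ± 228 against 1337 ± 289 in macrophages (SD, n = 4 each; -1.35 ± 0.25, adjusted p = 9.94e-05). The taurine carrier Slc6a6 was at 1218 ± 315 and 1195 ± 222 (SD, n = 4 each) in control macrophages and neutrophils and did not pass (0.00 ± 0.23, adjusted p = 0.994).

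In control macrophages 1 library, replicate 3, had the highest summed neutrophil markers (1673, against 293 to 450 in the other 3). The same library had the highest value of Slc2a3, Slc7a11, Slc16a3, Slc2a1 and Slc22a15 among the control macrophage libraries that kept one. It did not have the highest value of Slc28a2 (7.57, against 17.4 in replicate 1) or of Slc1a2 (5.51, against 19.7 in replicate 1), which were also higher in neutrophils. The part of neutrophil RNA in these macrophage values was not tested, and the 20 named members passed without this library too.

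Of 25 metal carriers, 8 were higher and 5 lower in control macrophages. Of 16 members of the zinc families 30 and 39, 6 were higher in control macrophages, 0 were lower and 10 did not pass, beside 26.4% of all genes higher and 24.8% lower. The 6 are the zinc exporter of the plasma membrane Slc30a1, Slc30a5, Slc39a6, Slc39a8, Slc39a9 and Slc39a10, of which Slc39a6 did not pass in cisplatin (adjusted p = 0.487). In cisplatin Slc39a4 was higher in neutrophils (-1.46, adjusted p = 0.0266). Slc30a1 stood at 290 to 541 in control macrophages and 75.9 to 138 in control neutrophils (1.90 ± 0.40, adjusted p = 0.000373). The metallothionein genes Mt1 and Mt2, which bind zinc, were higher in macrophages as well, by 1.73 ± 0.31 (adjusted p = 7.62e-05) and 1.32 ± 0.55 (adjusted p = 0.0480). Slc31a2, an intracellular copper carrier, was at 42.0 ± 18.2 and 256 ± 122 (SD, n = 4 each), and Slc31a1 (CTR1, the copper importer also studied for cisplatin uptake) was at 217 ± 16.1 (SD, n = 3) and 338 ± 82.5 (SD, n = 4), a log2 difference of -0.60 ± 0.22 (adjusted p = 0.0242). Slc11a1 (NRAMP1, the phagosomal metal exporter) was at 197 ± 34.4 (SD, n = 3) in macrophages and 507 ± 58.9 (SD, n = 4) in neutrophils, while its relative Slc11a2 (DMT1, an iron importer) was higher in macrophages by 1.69 ± 0.44 (adjusted p = 0.00248). Slc40a1 (ferroportin, the iron exporter for which macrophages are known) was higher in neutrophils here, at 247, 400 and 318 against 50.3, 80.6 and 30.7 in the macrophage libraries that kept a value (-2.63 ± 0.71, adjusted p = 0.00456). Of 16 other genes of iron, heme and copper handling, 3 were higher and 3 lower in control macrophages, with a median log2 difference of -0.06. The transferrin receptor Tfrc was 1 of the 3 lower (-1.74 ± 0.47, adjusted p = 0.00395).

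Of 29 mitochondrial carriers of family 25, 11 were higher and 4 lower in control macrophages, beside 26.4% of all genes higher and 24.8% lower. The citrate carrier Slc25a1 stood at 25.96 to 40.8 in control macrophages and 7.40 to 10.4 in control neutrophils (1.88 ± 0.36, adjusted p = 0.000149). The ATP and ADP exchangers Slc25a4 and Slc25a5 were higher in macrophages by 1.33 ± 0.36 and 0.81 ± 0.20 (adjusted p = 0.00473 and 0.00238), Slc25a4 without passing in cisplatin, where 1 neutrophil library kept a value (adjusted p = 0.137). On the neutrophil side, mitoferrin 1 (Slc25a37, the mitochondrial iron importer) stood at 196 to 566 against 26.2 to 68.2 in macrophages (-2.68 ± 0.32, adjusted p = 2.27e-07), and the carnitine carrier Slc25a20, which brings fatty acids to oxidation, at 105 ± 16.9 against 30.3 ± 9.11 (SD, n = 4 each). The phosphate carrier Slc25a3, at 590 ± 175 and 700.3 ± 131 (SD, n = 4 each), did not pass (-0.27 ± 0.28, adjusted p = 0.425).

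Of the nucleoside carriers, the concentrative Slc28a2 was higher in neutrophils, and the equilibrative Slc29a1 and Slc29a3 were higher in macrophages. Slc43a3, the purine nucleobase carrier of this class, was not among the members that passed in both control and cisplatin. The sodium-coupled Slc28a2 (CNT2) was at 209, 300, 207 and 281 in control neutrophils and 17.4, 6.49 and 7.57 in the control macrophages that kept a value (-4.55 ± 0.41, adjusted p = 9.68e-09). The lysosomal Slc29a3 (ENT3) was in macrophages at 757 ± 126 and in neutrophils at 228 ± 50.4 (SD, n = 4 each; 1.74 ± 0.33, adjusted p = 0.000138), and Slc29a1 (ENT1 of the plasma membrane) at 29.3 ± 3.74 and 11.3 ± 4.95 (SD, n = 4 each; 1.40 ± 0.35, adjusted p = 0.00184). The oligopeptide and histidine carriers Slc15a2 and Slc15a3 were higher in control neutrophils, by log2 differences of -1.41 ± 0.37 and -1.34 ± 0.39 (adjusted p = 0.00289 and 0.00584). Slc15a4, the endolysosomal histidine carrier needed for signalling by nucleic acid sensing Toll-like receptors, was higher in macrophages (0.96 ± 0.24, adjusted p = 0.00197).

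Slc22a15, an organic ion carrier of the zwitterion type, had the smallest p of all members. It stood at 117, 140, 128 and 108 in control neutrophils and at 3.66, 3.24, 7.57 and 2.79 in control macrophages (-4.62 ± 0.31, adjusted p = 1.28e-11). The lowest neutrophil library over all 4 treatments was at 108 and the highest macrophage library at 9.32. The phosphate carrier Slc20a1 (-2.38 ± 0.37), the choline carrier Slc44a2 (-2.42 ± 0.38) and the ascorbate carrier Slc23a2 (-1.09 ± 0.24) were higher in control neutrophils as well (adjusted p = 1.33e-05, 1.45e-05 and 0.000515). The endosomal sodium-proton exchanger Slc9a9 was at 92.9, 93.3 and 24.8 in control macrophages and at 5.55 to 13.3 in control neutrophils (2.70 ± 0.44, adjusted p = 2.38e-05). The fatty acid transport protein Slc27a1 was higher in macrophages (2.67 ± 0.49, adjusted p = 0.000101) and its relative Slc27a4 in neutrophils (-1.87 ± 0.46, adjusted p = 0.00186). In cisplatin the difference of Slc27a4 was -4.38, but 1 of 3 neutrophil libraries kept a value.

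Levels per kilobase of exon rank members against each other. In control macrophages Slc3a2 led with a normalised read count of 196 ± 58.3 per kilobase (SD, n = 4), followed by Slc38a2 (151 ± 32.6), Slc6a6 (144 ± 37.2) and Slc29a3 (130 ± 21.6), whose values overlap within their SD. In control neutrophils Slc2a1 (413 ± 112), Slc7a11 (405 ± 91.3) and Slc38a2 (379 ± 25.8) led within 1 SD of each other, ahead of Slc3a2 (235 ± 40.8; SD, n = 4 each). Slc2a1 ranked 6 in macrophages at 80.7 ± 27.5 per kilobase.

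Few carriers passed in the comparisons of treatment. These tests could miss changes. On data simulated for anti-CSF-1R against control with an assumed spread, 19% of genes changed 2-fold were called in neutrophils and 10% in macrophages. The other comparisons were not simulated. In neutrophils 0 of 144 tested members passed for anti-CSF-1R against control (0.153% of 9125 genes), 0 of 144 for cisplatin against control (0.121% of 9118 genes) and 0 of 144 for the combination against cisplatin (0.285% of 9119 genes). The numbers of members at an unadjusted p under 0.05 were 14, 8 and 15, beside 904, 819 and 926 of all genes tested. On the decoded reads limma-voom also called 0 in each. In macrophages the members at an unadjusted p under 0.05 were 29 of 137, 20 of 139 and 35 of 137 for the same comparisons. Over all genes there they were 2031 of 9083, 1025 of 9204 and 1905 of 9072. Nearest to the threshold in neutrophils was Slc2a6, at 336, 243 and 345 with anti-CSF-1R against 117, 93.1, 98.1 and 137 in control (1.46 ± 0.29, adjusted p = 0.0553). The neutrophil library left out, anti-CSF-1R replicate 1, is at 188 (92.8%) or 18.8 (7.18%). Slc22a15 stood at 222, 293 and 392.2 in cisplatin neutrophils against 108 to 140 in control neutrophils, without overlap, and did not pass (1.25 ± 0.31, adjusted p = 0.220). Slc10a7 had 6.71 ± 2.65 (SD, n = 4) in combination neutrophils against 18.1 ± 3.99 (SD, n = 3) in cisplatin neutrophils and did not pass (-1.35 ± 0.37, adjusted p = 0.145).

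In macrophages, anti-CSF-1R against control lowered 2 of 137 tested members and raised 0, against 4.45% of 9083 genes called (2.05% higher, 2.4% lower). The nucleoside carrier Slc29a1 stood at 12.7 and 9.79 with anti-CSF-1R against 31.6, 33.3, 25.5 and 26.8 in control (-1.31 ± 0.27, adjusted p = 0.0184). Slc7a5 (LAT1, the carrier of leucine and other large amino acids) stood at 27.1 and 32.6 against 65.5, 51.1, 76.4 and 72.0 (-1.11 ± 0.29, adjusted p = 0.0431). Neither set of values overlaps. Neither call held when the decimal places were decoded without the groups (adjusted p = 0.0542 and 0.119) or with limma-voom (0.109 and 0.0856). Leaving out anti-CSF-1R replicate 2 also ended both (0.171 and 0.181). Summed mast cell and basophil markers were 529 and 9586 in these anti-CSF-1R libraries against 15.2 to 77.1 in control, with 3 of 3 tested markers higher. Also higher were 2 of 7 monocyte markers (Ly6c2 by 5.21, Chil3 by 3.87), 2 of 3 eosinophil markers (Ear1 by 4.13, Ear2 by 4.17) and 1 of 8 neutrophil markers (Mmp8 by 3.27, all log2). Of 15 macrophage markers Trem2 was higher (1.58) and Cx3cr1 lower (-2.28). The part of these cells in the result was not tested. For the combination against cisplatin neither gene passed (Slc29a1 adjusted p = 0.0971, Slc7a5 adjusted p = 0.2).

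Cisplatin against control changed 2 of 139 tested members in macrophages, 1 higher and 1 lower, against 0.543% of 9204 genes (0.348% higher, 0.196% lower). Slc2a6 stood at 65.7, 63.1 and 67.5 in cisplatin and at 19.2 and 11.7 in control (2.05 ± 0.35, adjusted p = 0.0283). This call rests on which places were kept. The value left out in cisplatin, replicate 2, has places at 22.7 (56.9%), 2.27 (42.2%) and 227 (0.868%), so it is not near the other 3 at any of them. The values left out in control are most probably 24.3 and 20.7. With every value at its most probable place the difference was 1.40 ± 0.37 and did not pass (adjusted p = 0.178), nor did it pass when decoded without the groups (adjusted p = 0.119) or with limma-voom (adjusted p = 0.119). Slc13a3 stood at 19.9, 25.2 and 34.02 in cisplatin and 48.5, 86.0, 73.7 and 71.4 in control (-1.38 ± 0.27, adjusted p = 0.0463). Its left-out value, also of replicate 2, is 5.67 or 56.7, and 56.7 lies inside the control range. With every value at its most probable place it did not pass either (adjusted p = 0.0980). Leaving out cisplatin replicate 2 raised the number of members called from 2 to 7. In the same comparison 2 of 9 neutrophil markers were lower (S100a8 by -2.11, adjusted p = 0.0368, and Mmp9 by -3.73, adjusted p = 0.00341), as was the mast cell marker Tpsab1 (-3.71, adjusted p = 0.0276), and 0 of 15 macrophage markers passed. Their part in the result was not tested. The comparison of anti-CSF-1R with control uses the same control macrophages, and Slc13a3 stood at 37.3 and 29.4 in the anti-CSF-1R macrophages.

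**Figure D4:**
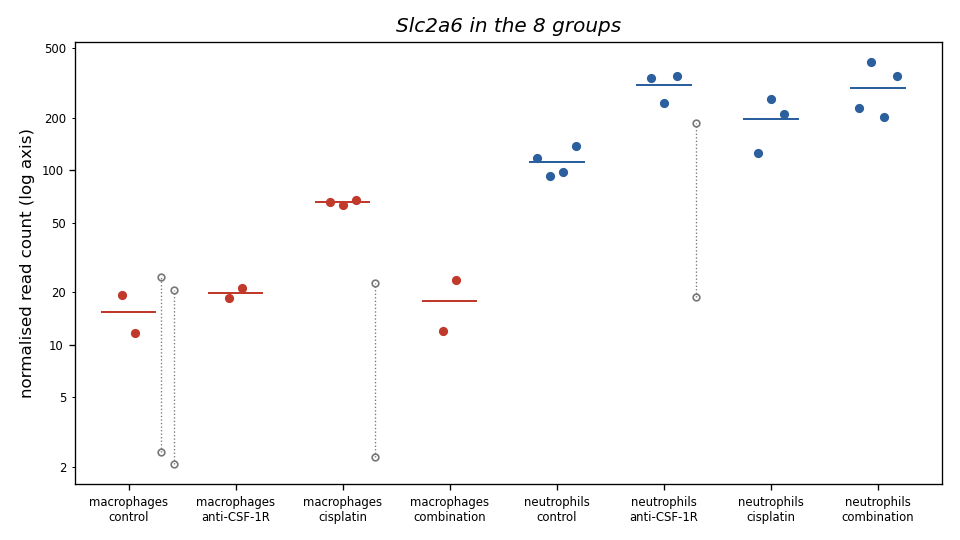
Normalised read count of Slc2a6 (y axis, log scale) in the 8 groups, with 1 filled point per library that kept a value and a line at their mean. Open points joined by a dotted line are the possible places, of at least 5% probability, of a value that was left out, and in cisplatin macrophages both lie below the 3 kept values of 63.1 to 67.5.

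The combination against cisplatin in macrophages raised 2 and lowered 6 of 137 tested members (5.84%), against 4.49% of 9072 genes (2.01% higher, 2.48% lower). Markers moved in the same comparison: 4 of 14 macrophage markers were lower (Csf1r by -1.02, C1qb by -1.14, C1qc by -1.36 and Cx3cr1 by -4.69, log2). Higher were 3 of 7 monocyte markers (Ly6c2 by 5.10, Plac8 by 3.57, Ms4a4c by 1.98), 4 of 9 neutrophil markers, 2 of 3 eosinophil markers and the endothelial marker Kdr (2.44). Their part in the changes of the carriers was not tested. Slc25a1, the citrate carrier, stood at 9.36 and 8.53 in the combination and at 42.8, 21.6, 42.8 and 28.1 in cisplatin (-1.75 ± 0.32, adjusted p = 0.01). Slc35a4 of the nucleotide sugar family stood at 69.6 and 82.4 against 152, 142, 157 and 179 (-1.04 ± 0.20, adjusted p = 0.0145). Slc10a3 of the bile acid family stood at 17.97 and 17.8 against 39.1, 47.7, 49.3 and 62.1 (-1.40 ± 0.30, adjusted p = 0.0226). None of these 3 sets of values overlaps, and all 3 passed when decoded without the groups, with limma-voom and with every value at its most probable place. Leaving out either combination library ended the 3 calls, and the 5 below as well. Leaving out cisplatin replicate 2 raised the number of members called to 16.

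The zinc and manganese importer Slc39a8 stood at 4.87 and 4.97 against 16.2 to 28.4 (-1.86 ± 0.37, adjusted p = 0.0145), and the arginine carrier Slc7a1 at 28.5 and 17.8 against 40.5 to 64.7 (-1.18 ± 0.30, adjusted p = 0.0396). Decoded without the groups, they had an adjusted p of 0.0779 and 0.276. Slc2a6 stood at 11.98 and 23.5 against 65.7, 63.1 and 67.5 (-1.90 ± 0.35, adjusted p = 0.0148), and with every value at its most probable place it had an adjusted p of 0.0739. The creatine carrier Slc6a8 rose from 96.6 ± 30.2 (SD, n = 3) to 265 and 211 (1.33 ± 0.29, adjusted p = 0.0281). Its adjusted p was 0.172 when decoded without the groups, and 0.170 with every value at its most probable place, where its left-out cisplatin value is 149.

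Slc1a2 rose most, from 1.48, 3.40, 2.15 and 3.24 in cisplatin to 44.5 and 16.3 in the combination (3.02 ± 0.53, adjusted p = 0.00787), with an adjusted p of 0.0600 when decoded without the groups. The cisplatin values are near the lowest value the table lists, so the fold depends on the pseudocount. Slc1a2 is a carrier that was higher in neutrophils than in macrophages. Summed neutrophil markers stood at 1426 and 1616 in the combination macrophages and at 203 to 446 in cisplatin macrophages, with 4 of 9 tested neutrophil markers higher and 0 lower, S100a8 by 2.24 ± 0.28 (adjusted p = 0.00514). Summed eosinophil markers stood at 186 and 217 against 6.66 to 9.94. The part of RNA of these cells in the rise of Slc1a2 was not tested. Of the other carriers that were higher in neutrophils in both comparisons of cell types, none passed as higher here. Most of those tested had a log2 difference above 0, such as 2.29 for Slc28a2 (adjusted p = 0.0540) and 1.78 for Slc10a1. Slc31a2 (1.07), Slc23a2 (0.79), Slc11a1 (0.69), Slc2a3 (0.52), Slc2a1 (0.18) and Slc7a11 (0.15) were above 0 too. Below 0 were Slc2a6, which passed (-1.90), Slc41a1 (-0.59), Slc35a5 (-0.44), Slc16a3 (-0.11) and Slc25a37 (-0.03).

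**Figure D5:**
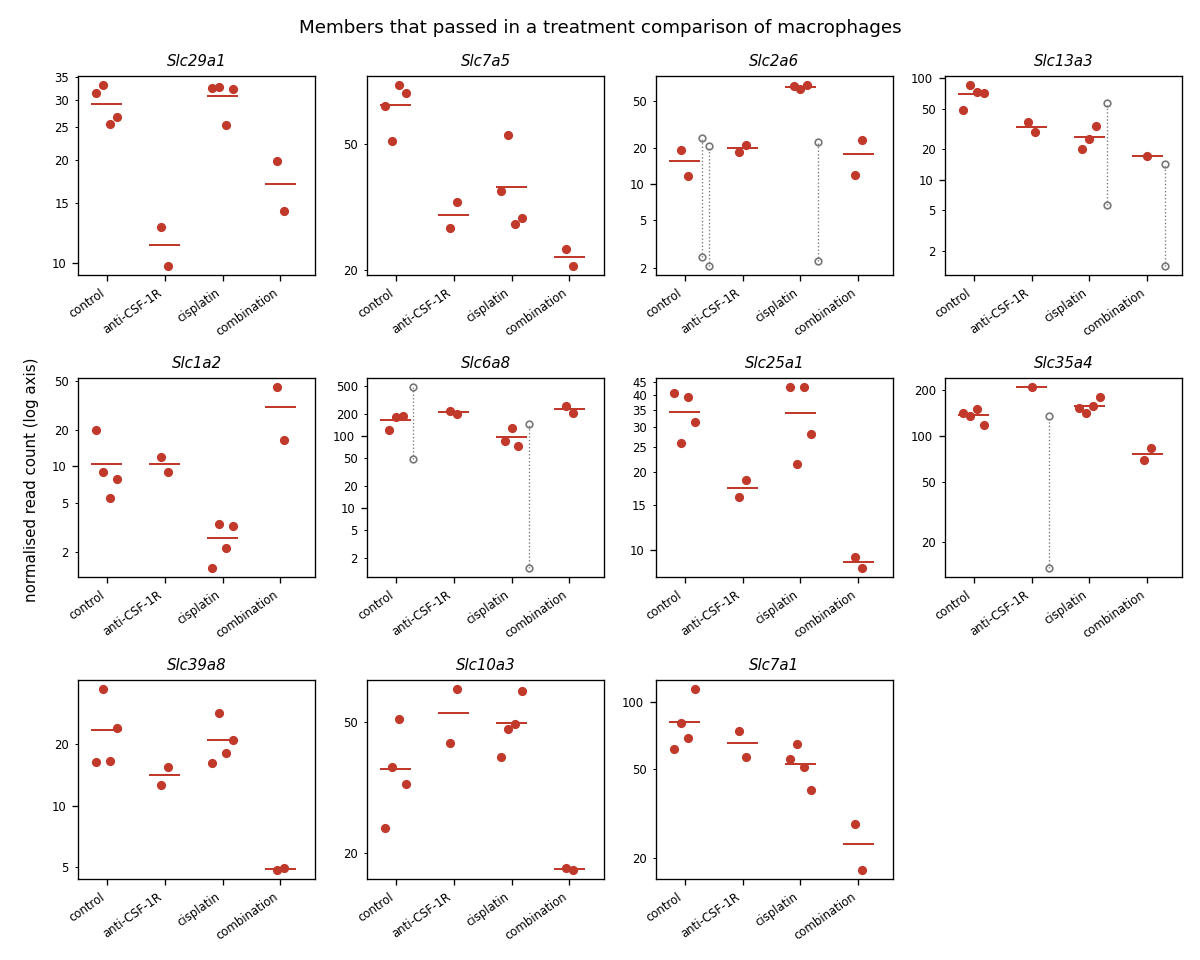
Normalised read count (y axis, log scale) of the 11 members that passed in at least 1 treatment comparison of macrophages, by treatment, with 1 filled point per library that kept a value, a line at the mean and open points for the possible places, of at least 5% probability, of values left out. Combination libraries lie below the cisplatin libraries in Slc25a1, Slc35a4, Slc39a8, Slc10a3 and Slc7a1 and above them in Slc1a2.

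Treatment effects were then compared between the cell types. For anti-CSF-1R against control 0 of 149 members differed in effect (0.348% of 9781 genes), with 14 at an unadjusted p under 0.05, and for cisplatin against control 0 of 151 (0.141% of 9895 genes), with 8. For the combination against cisplatin 1 of 149 differed (0.154% of 9763 genes), and this was Slc2a6 (-2.49 ± 0.45, adjusted p = 0.0174). Slc2a6 was lower by 1.90 in macrophages and higher by 0.59 in neutrophils on the log2 scale, the latter without passing (adjusted p = 0.525). With every value at its most probable place the difference of effects was -2.12 ± 0.54 (adjusted p = 0.0542), and without the groups its adjusted p was 0.0641. Passing in macrophages and not in neutrophils does not show that the cell types differ for the other members.

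Other genes of the carriers' pathways are given by counts beside the share of all genes called. In macrophages that share was 4.45% of 9083 genes for anti-CSF-1R against control and 4.49% of 9072 for the combination against cisplatin. With anti-CSF-1R, macrophages had 1 gene higher of 21 for glucose use and lactate, 1 higher of 15 for cystine and glutathione, 2 lower of 15 ATF4 targets of the amino acid response and 1 lower of 11 for arginine and polyamines. With the combination against cisplatin they had 1 lower of 3 for zinc, 1 higher of 15 for cystine and glutathione, 1 lower of 15 ATF4 targets, 2 higher of 11 for arginine and polyamines, and 1 higher and 1 lower of 15 carriers outside the Slc symbols. For cisplatin against control in macrophages (0.543% of all genes called), and for all 3 comparisons in neutrophils (0.121% to 0.285%), 0 genes of the 8 lists passed.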

How the data were processed

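RNA of the 27 libraries had been made into cDNA with NuGen kits (Ovation and Encore Rapid), per the labels' protocols. The submitters' processing notes name TopHat2 2.0.11, DESeq2, R 3.3.1, Partek 6.6, CASAVA 1.8 and the build mm10, without their roles. The authors deposited 1 table of signal values, written with 6 significant digits. No label or header says how they were scaled. The values of each library are whole multiples of 1 step, so they are read here as read counts divided by a size factor. In 91.1% of values the form allows a lost decimal point, and 67.8% have several possible places. A probability for each place came from the library's value of 1 read and the levels of the gene in its group (tolerance 0.02 reads). The levels in the other groups of the same cell type were used as well. Places with a probability of at least 0.95 were kept, and 7.49% of all values were left out. The expected share of wrong places among kept values was 0.199%. Using the groups to place values can favour places near the other libraries of a group, so a decoding without groups was run as an alternative. It pooled the treatments of a cell type and still placed the cell types separately. It therefore cannot check such a favour in the comparisons of macrophages with neutrophils.

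Differences were tested with limma 3.58.1 in R 4.3.3 (moderated, with trend, two-sided) on log2(value + 1), over genes that reached 10 in 2 or more libraries of a fit, and adjusted by Benjamini-Hochberg over all genes tested. Treatment comparisons were fitted within a cell type, and comparisons of cell types and of effects over all 8 groups. Left-out values were missing in the fit. On simulated data for anti-CSF-1R against control, 19% of genes changed 2-fold and 85% of those changed 4-fold were called in neutrophils (8684 genes), and 10% and 59% in macrophages (8711 genes). False calls were 15 of 119 and 9 of 78, above the nominal rate. The simulated spread among libraries was assumed and not fitted to these libraries. The rest used pandas 2.3.3, matplotlib 3.10.9, numpy 2.4.6 and scipy 1.17.1 under Python 3.11.15. Marker sums use the most probable place of every value.

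The members, substrate classes and lists were chosen with earlier results of these data known. Up to 10 members with the smallest p in each direction were named for a comparison, the 5 smallest where fewer than 5 passed, plus the listed carriers. Other members were named after their values were seen. Alternatives changed the pseudocount, filter, scaling, libraries in the fit, decoding and test, and left out each library in turn. Placing every value at its most probable place was added after the data were seen.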

Additional observations from a re-analysis of the deposited data

Results flagged for a closer look

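Of 90 groups in which 4 libraries kept a value, looked at over 27 members chosen after the results were seen, 4 held a library far from the others, and chance alone marks about 1 in 20 groups. Slc13a3 was lowest in control neutrophil replicate 1, at 2.96 against 8.87 to 9.26 in the other 3. Slc22a15 was highest in combination neutrophil replicate 2, at 395 against 171 to 196. Slc25a37 was lowest in cisplatin macrophage replicate 2, at 52.2 against 94.0 to 98.8. Slc29a1 was lowest in cisplatin macrophage replicate 3, at 25.4 against 32.4 to 32.9.

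The effect of the combination against cisplatin on Slc2a6 differed between the cell types by -2.49 on the log2 scale (macrophages minus neutrophils, limma with Benjamini-Hochberg adjustment, adjusted p = 0.0174). Of the 2 combination macrophage libraries both lay below the 3 cisplatin macrophage libraries with a kept value, while the most probable place of the cisplatin library without one is 22.7.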

How the results depend on the processing

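The numbers of members that differed between the cell types stayed within 1.5 times of 86 and 85 under every alternative run, and ranged from 74 to 85 in control and from 76 to 89 in cisplatin when 1 library was left out. The treatment counts moved. For anti-CSF-1R against control in macrophages, 2 members passed, against 1 with quantile normalisation, 0 with only the groups compared, 0 decoded without the groups, 0 with limma-voom, 6 with every value at its most probable place, and 0 to 4 without 1 library. For cisplatin against control in macrophages, 2 passed, against 0 without the filter, 1 with only the groups compared, 0 decoded without the groups, 0 with limma-voom, 0 at the most probable places, and 0 to 7 without 1 library. For the combination against cisplatin in macrophages, 8 passed, against 4 decoded without the groups and 0 to 16 without 1 library. For anti-CSF-1R in neutrophils, 0 passed, against 1 with a pseudocount of 10, 1 with only the groups compared and 1 without the 2 neutrophil libraries that stood apart. For differences of effects between the cell types, anti-CSF-1R gave 0 and 1 at the most probable places, cisplatin gave 0 and 0 to 1 without 1 library, and the combination gave 1, with 0 for only the groups compared, 0 decoded without the groups, 2 with limma-voom, 2 at the most probable places and 0 to 1 without 1 library. The cause was not tested. Over 88 results for named genes and 1418 alternatives, 1336 kept their side of the threshold, 74 lost it, 8 gained it and 0 changed direction. Where leaving out a library left 1 in a group, that library was assumed to vary like the others. No paired analysis was possible because the labels carry no replicate numbers.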
